A study of Mus musculus with 6 samples.

Results

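The potassium channel genes of the mouse were followed in whole brain at postnatal day 7, in male C57BL/6J pups given ethanol or saline. They were the genes on single-gene probesets whose annotated symbol begins with Kcn, followed by a subfamily letter code and a number. Antisense genes were left out, as were Kcnj3, Kcnj6, Kcnj9, Kcnj13, Kcnma1 and Kcnmb4. This gave 82 genes in 19 subfamilies, of 19938 genes in all. They were taken by symbol and not by their measured change, but with earlier results of these data known. A gene with several probesets was represented by the one with the highest mean over the 6 arrays.

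Ethanol pups received 2 subcutaneous injections of ethanol, a 20% solution in saline, of 2.5 g/kg each and 2 h apart. Saline pups received the saline vehicle alone on the same schedule. Brains were taken 4 h after the first injection. Each of the 2 ethanol arrays (2 and 4) and 4 saline arrays (1, 3, 5 and 6) held RNA pooled from 3 males of different litters, from 18 mice in all, and every ethanol pup had a saline littermate in one of the saline pools. C57BL/6J is an inbred strain, so the pups of both groups share 1 genetic background, and pooling means that no value belongs to a single pup.

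Potassium channels let potassium leave the cell and so set the resting potential, end action potentials and limit how often a neuron fires. Voltage-gated channels are built from pore subunits of the Kcna, Kcnb, Kcnc, Kcnd, Kcnh and Kcnq genes, with silent subunits and accessory proteins that alter their gating and traffic. Calcium- and sodium-activated channels follow the ions that enter during firing, inward rectifiers (Kcnj) hold the membrane near rest and in astrocytes clear potassium from the extracellular space, and tandem-pore-domain channels (Kcnk) carry leak current. In the rodent brain many of these genes are still increasing in expression during the first postnatal weeks, as neurons acquire mature firing.

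Promoters are shown for the member of smallest p among the inward rectifiers, the accessory subunits and the voltage-gated pore subunits, as an example of each of these 3 roles, and not because any of them passed the test. They run from 250 bases before to 50 after the annotated start, 5′ to 3′, from RefSeq on GRCm38.p6, and the array values do not tell which start site was in use. For Kcnj2 the stretch is chr11:111065914-111066213 on the plus strand, for Kcnip3 it is chr2:127522045-127522344 on the minus strand, the first of 3 listed starts, and for Kcnc1 it is chr7:46396218-46396517 on the plus strand. Capitals mark a GC box (GGGCGG), an AP-1 site (TGANTCA) or a CAAT box (CCAAT), each on either strand.
Kcnj2: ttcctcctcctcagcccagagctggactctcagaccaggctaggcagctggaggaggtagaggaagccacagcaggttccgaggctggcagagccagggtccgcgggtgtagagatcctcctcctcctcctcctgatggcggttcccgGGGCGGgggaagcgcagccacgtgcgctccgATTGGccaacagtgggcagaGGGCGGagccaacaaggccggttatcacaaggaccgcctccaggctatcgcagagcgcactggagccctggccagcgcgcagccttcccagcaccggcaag
Kcnip3: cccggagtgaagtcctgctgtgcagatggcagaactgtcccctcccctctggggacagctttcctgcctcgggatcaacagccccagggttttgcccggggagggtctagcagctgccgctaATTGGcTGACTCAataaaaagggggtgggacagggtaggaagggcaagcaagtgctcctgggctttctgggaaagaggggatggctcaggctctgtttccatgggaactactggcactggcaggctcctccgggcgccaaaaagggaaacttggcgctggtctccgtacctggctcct
Kcnc1: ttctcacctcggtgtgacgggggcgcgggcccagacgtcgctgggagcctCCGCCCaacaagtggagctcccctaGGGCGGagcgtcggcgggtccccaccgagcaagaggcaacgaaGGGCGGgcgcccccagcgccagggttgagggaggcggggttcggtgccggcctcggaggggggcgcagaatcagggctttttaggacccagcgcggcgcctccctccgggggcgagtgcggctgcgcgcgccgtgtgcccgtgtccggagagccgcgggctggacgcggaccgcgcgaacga
Kcnj2 held 2 GC boxes and 1 CAAT box, Kcnip3 held 1 AP-1 site beside 1 CAAT box, and Kcnc1 held 3 GC boxes. Of the 82 genes, 61 had a promoter in the RefSeq table. The first listed start of each gene was used, and the 27025 promoters compared were not limited to genes on the array. A TATA box (TATAAA, either strand) was found in 1 of the 61 promoters, that of Kcnj15, or 1.64%, against 14.2% of all 27025 promoters of the same length. GC boxes stood in 32 of the 61, or 52.5%, against 35.9% of all promoters, and the median GC content was 58.3% against 52.7%. An AP-1 site, the sequence bound by Jun and Fos proteins, was found in Kcne3, Kcnip3 and Kcnip4, or 4.92%, against 7.93% of all promoters. The cyclic AMP response element (TGACGTCA) was found in none of the 61 promoters and in 1.88% of all. CAAT boxes stood in 17 of the 61, or 27.9%, against 37.9% of all promoters. These matches are a description of letters in a window.

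The values are log2 intensities as the authors deposited them, and a change is the ethanol mean minus the saline mean on that scale, given with its standard error (SE) from limma, a linear model fitted to every tested gene. Olfactory and vomeronasal receptor genes, which the brain expresses little, served as a guide to background, and a gene with a mean below their 95th percentile of 6.21 is called near background. Neuronal markers were above that level in 11 of 11 cases and astrocyte markers in 10 of 10, as befits brain tissue. Saline array 3 was unlike the other 5 arrays: it scored 13.5 on the leading axis of a principal component analysis (40.9% of the variance). The other saline arrays scored from -2.13 to 2.95, and ethanol arrays 2 and 4 scored -6.61 and -7.49, at the opposite end. Saline array 3 also had the lowest median level over the tested genes, 8.29 against 8.34 to 8.38 on the others. Counts are therefore also given without it. Pituitary markers had a mean level of 5.65 to 6.06 on the ethanol arrays and 6.24 to 6.42 on the saline arrays over 8 genes, of which 3 were above background, and the part of this difference in the results on channel genes was not tested.

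Most of the family was detectable at day 7. Of the 82 genes, 60 had a mean above the background level, and all of the Kcnab, Kcnb, Kcnc, Kcnd, Kcnf, Kcnh, Kcnip, Kcns and Kcnt genes measured were among them. A further 8 were tested but lay near background, namely Kcna5, Kcna10, Kcnj5, Kcnj12, Kcnk16, Kcnmb1, Kcnmb3 and Kcnq1, which carries a cardiac and epithelial current. The remaining 14 belonged to the dimmest 25% of genes and were not tested. They were Kcna7, Kcne1, Kcne3, Kcne4, Kcng4, Kcnj1, Kcnj14, Kcnj15, Kcnk5, Kcnk7, Kcnk18, Kcnn4, Kcnu1 and Kcnv2, with means of 4.98 (Kcne4) to 5.47 (Kcnv2). Several of them are known from outside the brain, such as Kcnj1, the secretory channel of the kidney tubule, and Kcnu1, the channel of sperm. A probeset's intensity depends on its probes, so levels are set against background and not against each other.

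**Figure D1:**
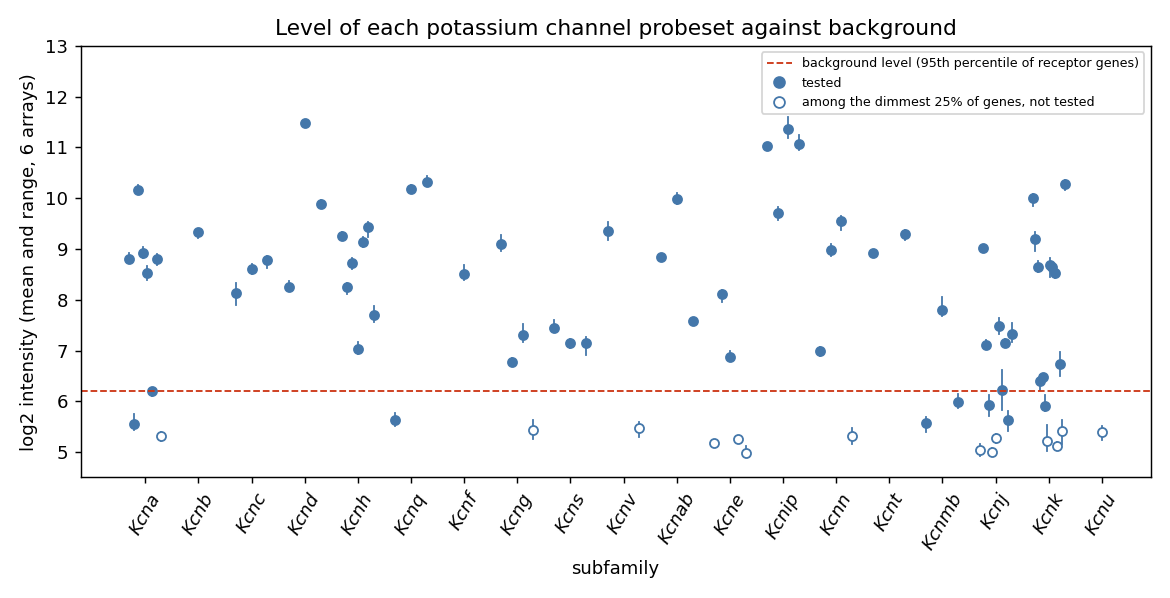
Mean log2 intensity over the 6 arrays (points) and the range over arrays (lines) for the 82 potassium channel genes by subfamily, with a dashed line at the background level of 6.21. The 60 genes above the line include every Kcnc, Kcnd, Kcnh and Kcnip gene measured, and the 14 open points are genes too dim to be tested.

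Ethanol was compared with saline to ask which brain transcripts differ 4 h after a first dose at this age. No potassium channel gene passed the limma test at an adjusted p of 0.05 among all 14953 tested genes, of which 12 passed, or 0.0803%. The smallest adjusted p among the 68 tested members was 0.0864, for Kcnj2, which encodes a strong inward rectifier. At an unadjusted p under 0.05 there were 3 members with higher values (Kcnc1, Kcna1 and Kcnn2), or 4.41% against 3.85% of all tested genes. There were 8 with lower values (Kcnj2, Kcnip3, Kcnv1, Kcnk3, Kcnj16, Kcng1, Kcns3 and Kcnmb3), or 11.8% against 8.44% of all tested genes. Both shares are near the background of all genes, so the counts are not a result about the channel family. The median change of the 68 was -0.0039, against -0.019 for all tested genes, with 33 members above 0 and 35 below. Each array comes from whole brain, in which fewer cells of a type and less RNA per cell cannot be told apart.

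The count of higher members depended on single arrays and on scaling. It was 1 without saline array 1, 5 without saline array 5 or ethanol array 2, and 0 without ethanol array 4, where the lower count was 7. Without saline array 3 there were 2 higher and 10 lower members. With each array centred on its median, 8 members were higher and 7 lower, where all tested genes went from 575 higher and 1262 lower to 990 higher and 896 lower. No member passed the adjusted threshold under any of these settings.

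For 20 of the 68 members, and for 22.6% of all tested genes, the groups did not overlap. In 9 members both ethanol arrays were above every saline array, or 13.2% against 7.68% of all tested genes, and in 11 both were below, or 16.2% against 14.9%. These counts moved to 17 above without ethanol array 2, to 16 above and 19 below without ethanol array 4, and to 18 below without saline array 3. The groups overlapped for the other 48 members. SEs of the 68 members ran from 0.058 to 0.11, and the 95% interval of the change lay within 0.3 of 0 on the log2 scale for 54 of them.

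**Figure D2:**
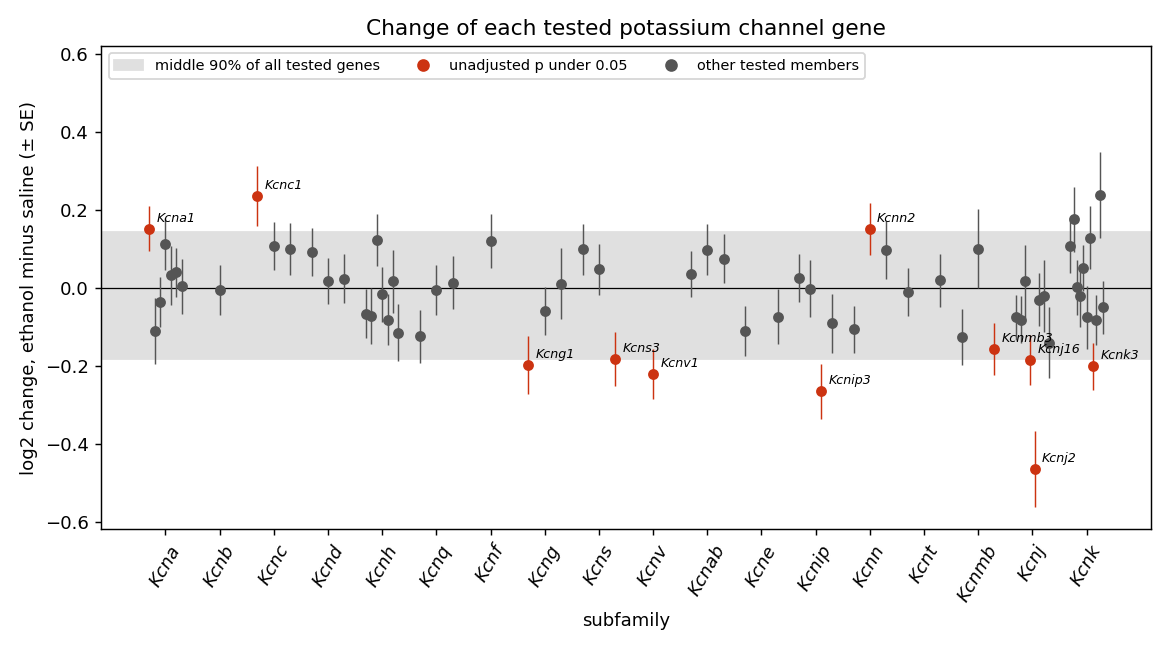
Log2 change, ethanol minus saline, with its SE for each of the 68 tested potassium channel genes by subfamily, with a grey band for the middle 90% of all tested genes (-0.18 to 0.14). The 11 genes at an unadjusted p under 0.05 are named, Kcnj2 lies lowest at -0.47, and none passed the adjusted threshold.

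Among the voltage-gated pore subunits 24 of 25 genes were tested, with a median change of 0.015. Of these, 2, or 8.33%, had a higher value and none a lower value at an unadjusted p under 0.05 in limma. The shares of all tested genes were 3.85% and 8.44%. In 6, or 25%, both ethanol arrays were above every saline array, against 7.68% of all tested genes. These shares, like those of the other roles below, rest on few genes and were not tested. The Kcnc genes encode Kv3 channels, whose fast closing lets neurons fire at high rates, and all 3 measured had ethanol arrays above every saline array. Kcnc1 was at 8.26 and 8.32 on ethanol arrays 2 and 4, and at 8.14, 7.89, 8.05 and 8.15 on saline arrays 1, 3, 5 and 6. The groups did not overlap, and saline array 3 was the lowest. Its change was 0.24 ± 0.08 (SE, limma adjusted p = 0.248), or 17.7% higher, and 0.18 without saline array 3 (adjusted p = 0.216).

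Kcnc2 was at 8.70 and 8.65 with ethanol and at 8.61, 8.50, 8.54 and 8.62 with saline, a change of 0.11 ± 0.06 (SE, limma adjusted p = 0.515). Kcnc4 was at 8.82 and 8.87 with ethanol and at 8.76, 8.63, 8.82 and 8.77 with saline, a change of 0.10 ± 0.07 (adjusted p = 0.574). In both genes the gap between the lowest ethanol and the highest saline array was small beside the spread of the saline arrays, and saline array 3 was again the lowest. The 3 Kcnc genes were singled out after their values were seen.

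Kcna1 encodes a Kv1 subunit of axons and their terminals, whose loss in people causes episodic ataxia. It was at 8.88 and 8.92 on ethanol arrays 2 and 4, and at 8.72, 8.73, 8.79 and 8.75 on saline arrays 1, 3, 5 and 6. The saline arrays were close together, with an SD of 0.03 (n = 4), and both ethanol arrays lay above them. The change was 0.15 ± 0.06 (SE, limma adjusted p = 0.320). Its neighbours on chromosome 6, Kcna5 and Kcna6, had changes of 0.04 ± 0.06 and 0.0035 ± 0.07, and both overlapped between the groups. The chromosome 3 genes Kcna2, Kcna3 and Kcna10 had changes of -0.04 ± 0.06, 0.11 ± 0.07 and -0.11 ± 0.08, and Kcna4, an A-type channel subunit, had 0.03 ± 0.08. A dimmer probeset of Kcna2 had a change of 0.19, of opposite sign, but the groups overlapped for both probesets. The dimmer one was at 8.32 and 8.10 with ethanol and at 8.32, 7.70, 8.01 and 8.08 with saline. Saline array 3 was the lowest of these.

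The Kcnd genes encode Kv4 channels, which carry the A-type current of dendrites. Kcnd1 was at 8.36 and 8.27 with ethanol and at 8.27, 8.17, 8.25 and 8.21 with saline, a change of 0.09 ± 0.06 (SE, limma adjusted p = 0.574). Ethanol array 4 and saline array 1 were equal to 2 decimals, and without ethanol array 2 the change was 0.046. Kcnd2 and Kcnd3 had changes of 0.02 ± 0.06 each, with 95% intervals of -0.11 to 0.15 and -0.11 to 0.16. Kcnb2, a Kv2 subunit of the delayed rectifier, had -0.0060 ± 0.06. The M-current genes Kcnq3 and Kcnq5, which hold back repeated firing, had -0.0053 ± 0.06 and 0.01 ± 0.07, and the near-background Kcnq1 had -0.12 ± 0.07.

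The 7 Kcnh genes belong to the ether-a-go-go family, and 5 of them had a change below 0. Kcnh3, which encodes a subunit of the ELK branch found in forebrain neurons, was at 8.82 and 8.80 with ethanol and at 8.72, 8.61, 8.79 and 8.64 with saline. It was the Kcnh gene with ethanol arrays beyond the saline arrays, with a change of 0.12 ± 0.07 (SE, limma adjusted p = 0.494). Kcnh1, Kcnh2, Kcnh5 and Kcnh8 had changes of -0.07 ± 0.06, -0.07 ± 0.07, -0.08 ± 0.07 and -0.12 ± 0.07, and all 4 overlapped between the groups. A dimmer probeset of Kcnh8 had 0.00033. Kcnh4 and Kcnh7 had -0.02 ± 0.07 and 0.02 ± 0.08.

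**Figure D3:**
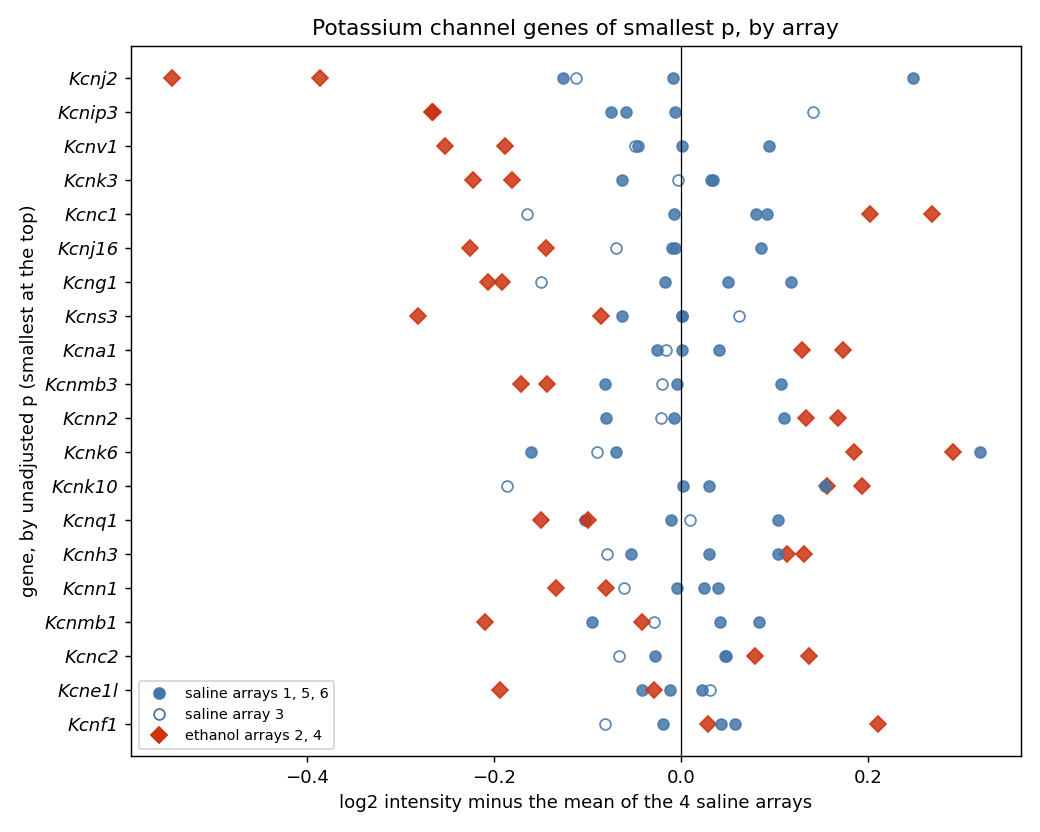
Log2 intensity on each of the 6 arrays minus the saline mean, for the 20 potassium channel genes of smallest unadjusted p. Both ethanol arrays (diamonds) are outside the saline range (circles, open for saline array 3) in the top 11 genes, from Kcnj2 to Kcnn2, and the groups overlap for others such as Kcnk6.

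Silent subunits form no channel alone and join Kv2 subunits to change their gating. Of 10 such genes 8 were tested. Kcnv1, Kcng1 and Kcns3, 1 in each of 3 subfamilies, had lower values at an unadjusted p under 0.05. They were 37.5% of the 8, against 8.44% of all tested genes. Kcnv1, a neuronal subunit, was at 9.18 and 9.24 on ethanol arrays 2 and 4, and at 9.53, 9.38, 9.43 and 9.38 on saline arrays 1, 3, 5 and 6. The groups did not overlap, and the change was -0.22 ± 0.06 (SE, limma adjusted p = 0.20). Kcng1 was at 8.96 and 8.97 with ethanol and at 9.28, 9.01, 9.15 and 9.21 with saline. Saline array 3 was the saline value nearest to the ethanol arrays, and the change was -0.20 ± 0.07 (adjusted p = 0.308), or -0.25 without that array (adjusted p = 0.136). Without saline array 1, the highest, the change was -0.16 (limma adjusted p = 0.394).

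Kcns3 was at 6.92 and 7.12 with ethanol and at 7.20, 7.26, 7.14 and 7.20 with saline. Ethanol array 2 was the low one, and array 4 lay just under the lowest saline array. The change was -0.18 ± 0.07 (SE, limma adjusted p = 0.310), and -0.086 without ethanol array 2 (adjusted p = 0.767). The other 5 tested silent subunit genes overlapped between the groups. Kcnf1, the single member of its subfamily, was at 8.50 and 8.68 with ethanol and at 8.45, 8.39, 8.51 and 8.52 with saline, a change of 0.12 ± 0.07. Without ethanol array 2 it was 0.21, and without ethanol array 4 it was 0.029. Kcng2, Kcng3, Kcns1 and Kcns2 had changes of -0.06 ± 0.06, 0.01 ± 0.09, 0.10 ± 0.07 and 0.05 ± 0.07.

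Accessory subunits were led by Kcnip3. Of 12 such genes 9 were tested. At an unadjusted p under 0.05 in limma, 1 was lower, or 11.1% against 8.44% of all tested genes, and none was higher. Both ethanol arrays lay below every saline array in 1, or 11.1%, against 14.9% of all tested genes. They lay above in none, against 7.68%. The Kcnip genes encode calcium-binding proteins that bring Kv4 channels to the surface, and the Kcnip3 protein, also called DREAM or calsenilin, is in addition a calcium-sensitive transcriptional repressor. It was at 11.19 and 11.20 on ethanol arrays 2 and 4, and at 11.39, 11.60, 11.40 and 11.46 on saline arrays 1, 3, 5 and 6. Both ethanol arrays lay below all saline arrays, and saline array 3 was the highest. The change was -0.27 ± 0.07 (SE, limma adjusted p = 0.168), a percent change of -16.8%, and -0.22 without saline array 3 (adjusted p = 0.145). Of the 14 alternatives run, all kept Kcnip3 lower at an unadjusted p under 0.05, with an adjusted p of 0.064 to 0.522.

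The other Kcnip genes overlapped between the groups, with changes of 0.03 ± 0.06 for Kcnip1, -0.0025 ± 0.07 for Kcnip2 and -0.09 ± 0.07 for Kcnip4. Kcnip2 was at 9.83 on ethanol array 2 and 9.58 on array 4, on either side of the saline arrays (9.66 to 9.76). The Kcnab genes encode beta subunits that bind Kv1 channels, and Kcnab1, Kcnab2 and Kcnab3 had changes of 0.04 ± 0.06, 0.10 ± 0.07 and 0.07 ± 0.06, and that of Kcnab2 was 0.05 without ethanol array 4. The Kcne genes encode small single-span subunits. Kcne1l was at 8.13 and 7.96 with ethanol and at 8.12, 8.19, 8.15 and 8.18 with saline, a change of -0.11 ± 0.06, or -0.029 without ethanol array 4. Kcne2, a subunit abundant in choroid plexus, had -0.07 ± 0.07.

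Inward rectifiers held the largest change among the 68 members. Of 11 genes 8 were tested, 7 of them had a change below 0, as did 8767 of all 14953 tested genes, and the median was -0.08. At an unadjusted p under 0.05, 2 were lower, Kcnj2 and Kcnj16, or 25% against 8.44% of all tested genes. Both ethanol arrays lay below all saline arrays for 4, namely Kcnj2, Kcnj10, Kcnj11 and Kcnj16, or 50% against 14.9% of all tested genes. Kcnj2 encodes a channel that fixes the resting potential in muscle, neurons and capillary endothelium. It was at 5.83 and 5.99 on ethanol arrays 2 and 4, and at 6.62, 6.26, 6.25 and 6.37 on saline arrays 1, 3, 5 and 6. The groups did not overlap, but both ethanol values lay under the background level of 6.21. Saline arrays 3 and 5 were only just above it. Without saline array 1, the highest, the change of Kcnj2 was -0.38.

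The change of Kcnj2 was -0.47 ± 0.10 (SE, limma adjusted p = 0.0864), a percent change of -27.6%, with a 95% interval of -0.68 to -0.25. Since its ethanol values lay in the background range, the size of the change is uncertain. The adjusted p ran from 0.051 with array weights to 0.388 without ethanol array 4, and the change ran from -0.55 to -0.38. Endothelial markers had a mean level of 8.14 to 8.19 on the ethanol arrays and 8.09 to 8.20 on the saline arrays, so that list overlapped between the groups. Skeletal muscle markers did not overlap, at 5.68 to 5.73 with ethanol and 5.75 to 5.89 with saline over 9 genes, of which 3 were above background, and their part in the Kcnj2 value was not tested.

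Kcnj16 is the neighbour of Kcnj2 on chromosome 11, and no other protein-coding gene lies between them in the GRCm38.p6 annotation. Its product pairs with that of Kcnj10 in astrocytes to form the channel that takes up potassium and responds to pH. Kcnj16 was at 7.40 and 7.32 on ethanol arrays 2 and 4, and at 7.63, 7.48, 7.54 and 7.54 on saline arrays 1, 3, 5 and 6. Its groups did not overlap, and the change was -0.19 ± 0.06 (SE, limma adjusted p = 0.270). Kcnj10 was at 8.95 and 9.0 with ethanol and at 9.08, 9.02, 9.02 and 9.08 with saline, a change of -0.08 ± 0.06 (adjusted p = 0.630). Astrocyte markers had a mean level of 10.19 to 10.25 on the ethanol arrays and likewise 10.19 to 10.25 on the saline arrays.

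The ATP-sensitive channels of metabolism are formed by Kcnj11 in neurons and Kcnj8 in pericytes and smooth muscle. Kcnj11 was at 7.09 and 7.04 with ethanol and at 7.11, 7.12, 7.21 and 7.14 with saline, a change of -0.08 ± 0.06 (SE, limma adjusted p = 0.607). Kcnj8 overlapped between the groups, with a change of -0.14 ± 0.09 (adjusted p = 0.564). Pericyte markers had a mean level of 8.15 to 8.20 with ethanol and 8.21 to 8.27 with saline over 9 genes, 8 of them above background, and their part in the Kcnj8 value was not tested. Kcnj4, Kcnj5 and Kcnj12 had changes of -0.03 ± 0.07, -0.02 ± 0.09 and 0.02 ± 0.09, the last 2 near background.

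Among the tandem-pore-domain leak channels 11 of 14 genes were tested, and their median change was 0.00049. At an unadjusted p under 0.05 in limma, 1 was lower, or 9.09% against 8.44% of all tested genes, and none was higher. Both ethanol arrays lay above every saline array in 2, or 18.2%, and below in 1, or 9.09%. The shares of all tested genes were 7.68% and 14.9%. Kcnk3 encodes an acid-sensitive leak channel. It was at 8.48 and 8.53 on ethanol arrays 2 and 4, and at 8.64, 8.70, 8.74 and 8.74 on saline arrays 1, 3, 5 and 6. The groups did not overlap, and its change was -0.20 ± 0.06 (SE, limma adjusted p = 0.209). Its close relative Kcnk9, known from cerebellar granule cells, had -0.05 ± 0.07, with a 95% interval of -0.20 to 0.10. The difference between the 2 genes was not tested.

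The mechanosensitive leak channels had values on both sides of 0. Kcnk10 was at 9.29 and 9.33 with ethanol and at 9.14, 8.95, 9.29 and 9.17 with saline, so that saline array 5 nearly reached the ethanol arrays, and its change was 0.18 ± 0.08 (SE, limma adjusted p = 0.417), or 0.11 without saline array 3. Kcnk2 and Kcnk4 had 0.13 ± 0.08 and -0.08 ± 0.06. Kcnk6 was at 6.84 and 6.95 with ethanol and at 6.59, 6.57, 6.98 and 6.50 with saline, where array 5 exceeded both ethanol arrays. Its change was 0.24 ± 0.11 (SE, limma adjusted p = 0.410), and without saline array 5 it was 0.34 with an adjusted p of 0.164, equal to that of Kcnj2 in that fit. Kcnk1 had both ethanol arrays above the saline arrays, at 10.08 and 10.06 against a highest saline value of 10.03, a change of 0.11 ± 0.07. Kcnk12, Kcnk13, Kcnk15 and the near-background Kcnk16 had 0.00049 ± 0.07, -0.02 ± 0.08, 0.05 ± 0.06 and -0.08 ± 0.08.

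The last group took in the calcium- and sodium-activated channel genes, the Kcnmb beta subunit genes and Kcnu1, with 8 of 10 genes tested. At an unadjusted p under 0.05 in limma, 1 was higher and 1 lower, or 12.5% each. The shares of all tested genes were 3.85% and 8.44%. Both ethanol arrays lay above every saline array in 1, or 12.5%, and below in 2, or 25%. The shares of all tested genes were 7.68% and 14.9%. Kcnn genes encode small-conductance channels that follow spikes with a slow hyperpolarisation. Kcnn2 was at 9.07 and 9.10 on ethanol arrays 2 and 4, and at 8.85, 8.91, 8.93 and 9.04 on saline arrays 1, 3, 5 and 6. Both ethanol arrays lay above all saline arrays, with saline array 6 close to them, and the change was 0.15 ± 0.07 (SE, limma adjusted p = 0.380). Kcnn1 went the other way without overlap, at 6.89 and 6.94 with ethanol and at 7.05, 6.96, 7.06 and 7.02 with saline, a change of -0.11 ± 0.06 (adjusted p = 0.507). Kcnn3 had 0.10 ± 0.07.

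The Kcnmb genes encode beta subunits of the large-conductance calcium-activated channel. Kcnmb3, near background, was at 5.87 and 5.90 with ethanol and at 6.04, 6.02, 6.15 and 5.96 with saline, a change of -0.16 ± 0.07 (SE, limma adjusted p = 0.358). All 6 of its values lay under the background level. Kcnmb1, also near background, was at 5.40 and 5.56 with ethanol and at 5.65, 5.58, 5.51 and 5.69 with saline. Kcnmb2 was at 7.68 on ethanol array 2 and 8.06 on array 4, and the ethanol arrays thus stood on either side of the saline mean of 7.77. The sodium-activated channel genes Kcnt1 and Kcnt2 had changes of -0.01 ± 0.06 and 0.02 ± 0.07.

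**Figure D4:**
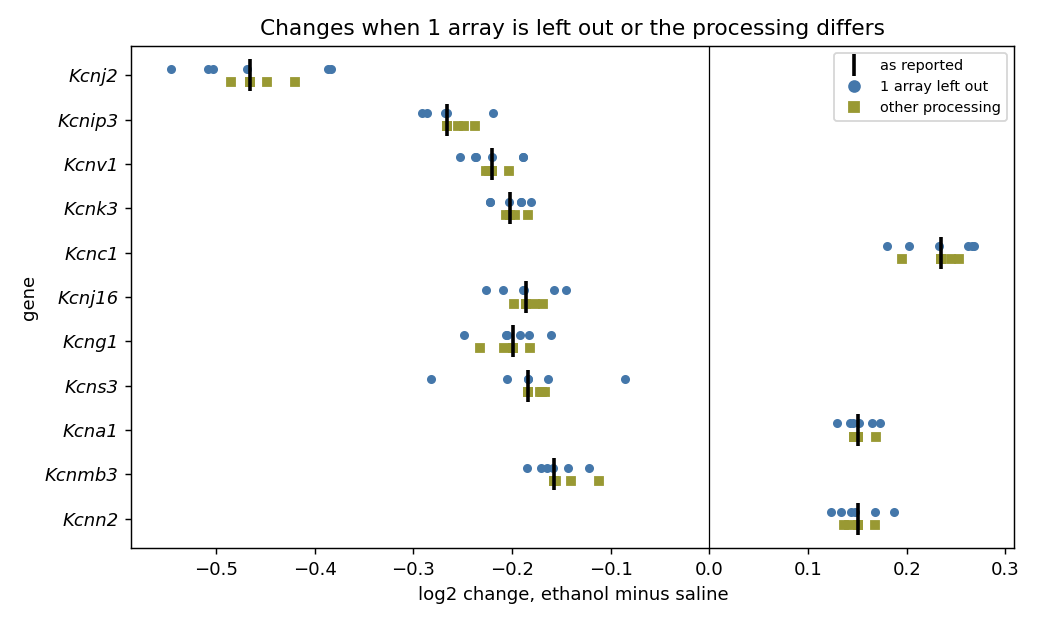
Log2 change, ethanol minus saline, of the 11 potassium channel genes at an unadjusted p under 0.05, as reported (bars), with 1 array left out (circles) and under other processing (squares). Every gene kept its sign in every setting shown, with Kcnj2 between -0.55 and -0.38 and Kcns3 between -0.28 and -0.09.

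Genes whose products work beside these channels were read in the same fit. Of 24 listed partners that are not Kcn genes, 21 were tested and none passed the limma test. Their median change was 0.0064, and 1 was lower at an unadjusted p under 0.05, or 4.76% against 8.44% of all tested genes. That gene was Rest, the repressor of neuronal genes, channel genes among them, at 6.76 and 6.74 on the ethanol arrays and at 6.78, 7.03, 7.01 and 6.88 on saline arrays 1, 3, 5 and 6. Its change was -0.18 ± 0.08 (SE, limma adjusted p = 0.366). The scaffold gene Akap5 and the membrane tether gene Vapb had changes of -0.11 and -0.09. Of 9 HCN channel and sodium pump genes tested, none passed. At an unadjusted p under 0.05, 1 was lower, or 11.1% against 8.44% of all tested genes. It was the pump subunit gene Atp1b3 (-0.16 ± 0.07, limma adjusted p = 0.366). Fxyd7 and Fxyd1, regulators of the pump, had -0.12 and -0.12. None of the 13 voltage-gated sodium channel genes tested passed or had an unadjusted p under 0.05, where 12.3% of all tested genes had the latter. Scn3a, Scn9a and Scn4b, the last near background, had changes of 0.16, 0.11 and 0.08.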

How the data were processed

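RNA of 6 pools, each of 3 pups, was measured on an Affymetrix whole-transcript array after labelling of 200 ng, per the labels' protocols. The deposited table of the authors lists each probeset once for each array. The values (4.10 to 14.9) were taken as log2 from their range. The software named is Partek 6.6, per the submitters' processing notes. How background was corrected and arrays were normalized is not given in the sources used here. The authors' deposited log2 values were used unchanged, and the split between higher and lower members depends on that scaling.

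Of 35556 probesets, 21789 had 1 gene symbol, 1621 several and 12146 were unnamed here. The named ones covered 19938 genes. The dimmest 25% by mean (up to 5.55) were left out and 14953 genes were tested. Each was fitted with limma 3.58.1 (lmFit, eBayes) under R 4.3.3, two-sided, on a model of treatment alone, with Benjamini-Hochberg adjustment over all tested genes and a threshold of 0.05. The fit had 4 residual and 8.10 prior degrees of freedom. A run on simulated data checked the code alone. Its noise was independent, no array was unlike the rest, and its planted changes were larger than that of any member. It therefore does not show how well the fit suits these data. p-values measure the spread between pools, and the number of arrays limits the precision. No batch is given in the labels.

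Genes are named with values per array where they were among the 20 tested members of smallest p or led their subfamily. For Kcnq1, Kcnab2, Kcnb2 and Kcnt2, which also met this rule, the change and its SE are given instead. Further members were added after their values were seen. From each list of other genes the 3 of smallest p are named. The members and lists were chosen with earlier results of these data known. Alternatives were the filter, the mean of a gene's probesets, median centring, quantile normalization, array weights, a trended robust prior and leaving out each array, plus leaving out near-background genes, which was chosen after seeing the data. Marker lists of neurons, cerebellar granule cells, astrocytes, oligodendrocyte lineage, microglia, endothelium, pericytes, choroid plexus, meninges, pituitary and skeletal muscle were read in the same fit. In them 1 of 11, 1 of 9, 1 of 10, 2 of 9, 1 of 8, 1 of 9, 1 of 9, 1 of 9, 1 of 9, 4 of 5 and 1 of 4 tested members, in that order, had an unadjusted p under 0.05 and none passed the adjusted threshold in limma. Of all tested genes 12.3% had such an unadjusted p. The called markers of cerebellar granule cells and endothelium were higher with ethanol, and those of the other lists were lower.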

Additional observations from a re-analysis of the deposited data

Results flagged for a closer look

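Among the 4 saline arrays, 5 of the 68 tested potassium channel genes, or 7.35%, had 1 array far from the other 3 relative to their range (Dixon's ratio past its critical value), where chance gives about 1 in 20. In 4 of the 5 it was saline array 3. The share of all tested genes flagged this way was not computed, so the count is not a result about the channel family. Kcnk2, a mechanosensitive leak channel gene, was at 8.45 on saline array 3 and at 8.70 to 8.71 on the others. Kcnh2, an ether-a-go-go-related channel gene, was at 8.11 against 8.32 to 8.33, and the sodium-activated channel gene Kcnt2 at 9.18 against 9.31 to 9.32. Kcnk15 was higher on saline array 3, at 6.52 against 6.45 on the others. Kcnj5, near background, was at 5.73 on saline array 6 and at 5.59 to 5.60 on the others. Without saline array 3, Kcnt2 had a change of -0.015 in place of 0.02.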

How the results depend on the processing

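No potassium channel gene passed the adjusted threshold in limma under any of the 14 alternatives. The median change of the members ran from -0.024 to 0.015 over them. It moved from the reported value by no more than the SD of the median member level between saline arrays. That is a wide bound, because this level was 8.48 on saline array 3 and 8.56 to 8.60 on the other saline arrays. The range of the median change spans 0, so its sign is not settled. Higher members at an unadjusted p under 0.05 numbered 3 as reported, 8 after median centring, 5 after quantile normalization, 5 with a trended robust prior and 0 to 5 with 1 array left out. Lower members numbered 8 as reported, 5 when the test was limited to the brighter 50% of genes and 6 to 10 with 1 array left out. Members with both ethanol arrays above all saline arrays numbered 9 as reported, 15 after median centring and 10 to 17 with 1 array left out. Those with both below numbered 11 as reported, 6 with the dimmest 50% left out and 12 to 19 with 1 array left out. Leaving out an array loosens that criterion by construction, and leaving out dim genes tests fewer members (48 in place of 68). For the counts under other scalings the cause was not tested. The changes of Kcnb2 and Kcnt2, both close to 0, turned sign. Kcnb2 was 0.011 after centring and ran from -0.041 to 0.014 with 1 array left out, above 0 without saline arrays 1, 5 or 6 or ethanol array 4. Kcnt2 was -0.0037 with array weights and ran from -0.052 to 0.091 with 1 array left out, below 0 without saline array 3 or ethanol array 4. At an unadjusted p under 0.05, Kcnj2, Kcnip3, Kcnv1 and Kcnk3 stayed lower in every alternative that tested them, and the other 7 members each lost that level in at least 1. Kcnc1 and Kcnj16 kept it in 13 of 14 alternatives, Kcna1 in 12 of 14 and Kcng1 in 11 of 14. Kcns3 kept it in 11 of 13, Kcnn2 in 8 of 14 and Kcnmb3 in 7 of 12. Without an ethanol array the lone one is assumed to vary like the saline arrays. Signal over background limits Kcnj2 and Kcnmb3. No paired analysis was possible because the labels do not tell which arrays hold littermates and the groups share no replicate number, so the model of treatment alone leaves the matching by litter out.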
